A study of Mus musculus with 6 samples.

Results

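Mitotic kinesins are motor proteins that move on or take apart microtubules while a cell divides. The genes described here are Kif11, Kif15, Kif22, Kif4, Kif23, Kif20a, Kif20b, Kif14, Kif2c and Kif18b, 10 of the 54232 genes in the count table, taken by gene symbol. They were measured in chronic lymphocytic leukaemia (CLL) cells sorted from the spleens of C57BL/6J mice, to which leukaemia cells from terminally ill Eµ-TCL1 mice had been transferred. In this model the TCL1 oncogene is driven in B cells, and the transferred leukaemia grows in a wild-type host. Recipients in the CK1i group (3 libraries) were dosed orally with 50 mg/kg PF-670462, which blocks the delta and epsilon forms of casein kinase 1, dissolved in 10% kolliphor/PBS. Recipients in the CTRL group (3 libraries) were given 10% kolliphor/PBS alone. In both groups dosing began on day 5 after transfer, alternated 5 treatment days with 2 rest days, and lasted 8 weeks, ending once the CTRL mice were terminally ill, defined as at least 60% CLL cells among blood leukocytes. The labels give neither age nor sex.

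A kinesin turns ATP hydrolysis into steps along a microtubule or into removal of tubulin from its ends. In mitosis, different kinesins push the spindle poles apart, hold and move chromosomes, bundle the central spindle and complete cytokinesis. Their genes are transcribed mostly in the G2 and M phases, under the DREAM and MuvB complexes with B-MYB and FOXM1, which act through a cell cycle homology element (CHR) near the transcription start and often through NF-Y at CCAAT boxes. Their messenger RNA is therefore commonly used to follow dividing cells, which are a small share of most CLL populations.

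The promoters are shown as background to this regulation, and no link between them and the measured values was tested. RefSeq windows on GRCm38.p6, from 250 bases before to 50 bases after the start site, were at hand for 9 of the 10 genes, and none is shown for Kif20a. Kif23 and Kif18b are given whole. Sequences run 5′ to 3′ on the strand of the gene, and capitals mark each match to the CHR core TTTGAA or to CCAAT, on either strand (TTCAAA and ATTGG on the opposite one).
Kif23 promoter (chr9:61946750-61947049, minus strand): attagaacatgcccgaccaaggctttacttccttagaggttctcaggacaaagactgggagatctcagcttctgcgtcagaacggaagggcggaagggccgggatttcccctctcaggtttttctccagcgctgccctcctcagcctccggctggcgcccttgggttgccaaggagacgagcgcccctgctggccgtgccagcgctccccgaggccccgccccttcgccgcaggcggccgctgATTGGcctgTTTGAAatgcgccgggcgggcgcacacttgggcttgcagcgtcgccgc
Kif18b promoter (chr11:102925075-102925374, minus strand): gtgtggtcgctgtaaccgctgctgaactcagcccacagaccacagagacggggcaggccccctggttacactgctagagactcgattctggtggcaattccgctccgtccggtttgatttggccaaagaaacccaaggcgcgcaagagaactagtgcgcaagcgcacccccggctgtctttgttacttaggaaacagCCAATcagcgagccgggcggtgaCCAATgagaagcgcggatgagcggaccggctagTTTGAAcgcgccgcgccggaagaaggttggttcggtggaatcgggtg
For the other 7 genes, only the CHR core match nearest to the start site is shown, in capitals, with 10 bases on each side.
Kif11 (chr19:37376353-37376378, plus strand): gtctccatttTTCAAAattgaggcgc
Kif15 (chr9:122951052-122951077, plus strand): gggcgccaaaTTCAAAtctgcggcca
Kif22 (chr7:127042422-127042447, minus strand): gccccggtaaTTCAAAagagagaagc
Kif4 (chrX:100626074-100626099, plus strand): ctgggatcaaTTTGAAacttggcggt
Kif20b (chr19:34922355-34922380, plus strand): gccgccattgTTTGAAtttgaaaacc
Kif14 (chr1:136467610-136467635, plus strand): aggtcctgtcTTTGAAgtctgcagtg
Kif2c (chr4:117178860-117178885, minus strand): aggctgctctTTCAAAcctgagtaat
All 9 windows held TTTGAA on one strand or the other, as did 17.9% of the 32851 RefSeq promoter windows. In 7 of the 9 the match began within 50 bases of the start site, a distance chosen after the positions were seen, against 4.94% of all windows. Kif20b carried the core in a pair, one straight after the other, beginning at bases 7 and 13 after the start site. The exceptions were Kif14, with its match at base -228, and Kif2c, with its match at base -103, counted from the start site. The RefSeq start lies 1505 bases inside the GENCODE gene for Kif14, 3867 bases inside it for Kif2c and 328 bases inside it for Kif4, so these 3 windows do not cover the outermost annotated start. CCAAT occurred in 6 of the 9 windows and in 37.4% of all windows, and 0 matches of the different motifs overlapped. These are matches of letters and carry no measurement of binding.

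**Figure D1:**
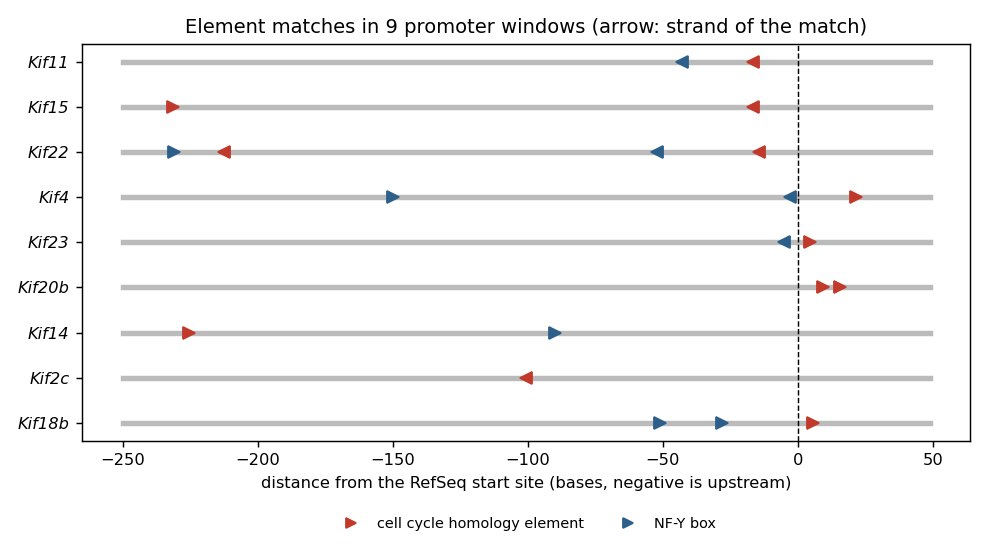
Positions of CHR core and NF-Y box matches in the 9 promoter windows, in bases from the RefSeq start site (dashed line); arrows give the strand of each match. In 7 genes a CHR core match begins within 50 bases of the start site, and the exceptions are Kif14 and Kif2c.

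Kinesin values were higher in CK1i than in CTRL in 9 of 9 genes that could be tested, with a median log2 fold change of 0.85, while the median of all 10067 tested genes was -0.0055 and 48.8% of them had higher values in CK1i. No kinesin passed an adjusted p of 0.05 over all tested genes in edgeR's quasi-likelihood test, which called 0 genes in all (0%), with 272 genes higher and 201 lower at an unadjusted p under 0.05. DESeq2 called 8 genes and limma-voom 0, with 0 kinesins among them. At an unadjusted p under 0.05, 7 of the 9 kinesins had higher values in CK1i and 0 had lower ones, where 2.70% of all tested genes were higher and 2.00% lower at that level. For 5 of the 9, Kif23, Kif20a, Kif14, Kif2c and Kif18b, each CK1i library lay above each CTRL library, an order seen in 5.22% of all tested genes. Kif11 had too few counts to be tested. The 10 genes together had 375, 587 and 402 CPM (counts scaled to a common library size, with TMM factors) in CK1i replicates 1 to 3, against 191, 333 and 301 CPM in CTRL replicates 1 to 3. In RNA from a bulk of cells, a larger share of dividing cells and more kinesin RNA per dividing cell cannot be told apart.

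**Figure D2:**
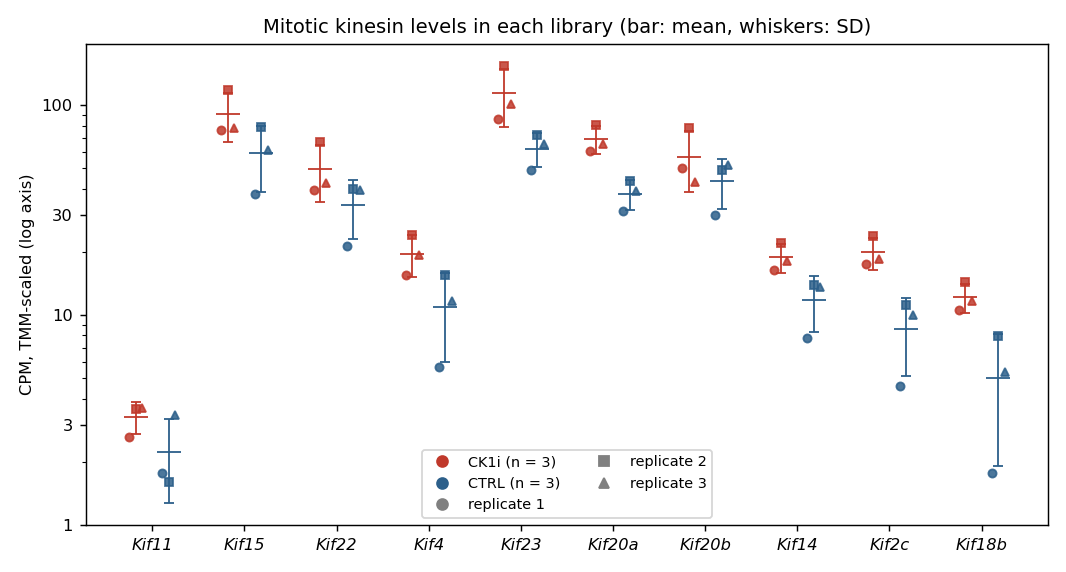
TMM-scaled CPM of the 10 mitotic kinesins (log axis) in 3 CK1i libraries (red, left of each pair) and 3 CTRL libraries (blue), with mean and SD. CTRL replicate 1 (blue circle) is the lowest library and CK1i replicate 2 (red square) the highest in every gene but Kif11.

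Among the kinesins that bundle the central spindle and finish cytokinesis, Kif23 and Kif20a differed most between the groups relative to their spread. Kif23 (ENSMUSG00000032254, chromosome 9, 61915905 to 61946774 on the minus strand of GRCm38) encodes MKLP1, the motor of the centralspindlin complex. It had 86.2, 154 and 102 CPM in CK1i replicates 1 to 3, against 49.3, 71.9 and 65.4 CPM in CTRL replicates 1 to 3. The groups did not overlap, but CK1i replicate 1 lay closer to the highest CTRL library than to CK1i replicate 2. The log2 fold change was 0.88 ± 0.22 (SE; edgeR adjusted p = 0.579).

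Kif20a (ENSMUSG00000003779) encodes MKLP2, which brings the chromosomal passenger complex to the midzone. It had 60.5, 80.9 and 65.8 CPM in CK1i replicates 1 to 3, against 31.2, 43.5 and 39.1 CPM in CTRL replicates 1 to 3. All CK1i libraries were well above all CTRL libraries. Its log2 fold change of 0.87 ± 0.18 (SE) had the smallest p of the 9 kinesins (edgeR adjusted p = 0.393). The gene, on chromosome 18, overlaps Cdc23 on the opposite strand, and the labels do not say whether counting used strand. Cdc23, a subunit of the anaphase-promoting complex, had 59.6 to 69.2 CPM in CK1i, against 61.1 to 72.7 CPM in CTRL, and these ranges overlapped (log2 fold change -0.060 ± 0.15, SE).

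Kif20b encodes MPHOSPH1, a motor of late cytokinesis related to Kif20a. It had 50.0, 78.0 and 42.9 CPM in CK1i replicates 1 to 3, against 30.2, 49.1 and 51.7 CPM in CTRL replicates 1 to 3. The groups overlapped, since CK1i replicate 3 lay below CTRL replicates 2 and 3. The log2 fold change, 0.39 ± 0.25 (SE, with edgeR adjusted p = 0.9995), was the lowest of the 9, and leaving out CK1i replicate 2 gave 0.089, while leaving out CTRL replicate 1 gave 0.18. Kif14, which works with citron kinase and PRC1 at the midbody, ranged from 16.5 to 22.2 CPM in CK1i, against 7.81 to 14.0 CPM in CTRL. The Kif14 ranges were apart, and its log2 fold change was 0.68 ± 0.26 (SE; edgeR adjusted p = 0.977), with 0.45 when CTRL replicate 1 was left out.

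Of the 9, Kif2c and Kif18b, which shorten microtubules, had the largest fold changes and the fewest counts, with 243 and 146 in all. Their relatives outside the 9, Kif2a and Kif18a, had log2 fold changes of -0.028 ± 0.17 and 0.69 ± 0.20 (SE). Kif2c (ENSMUSG00000028678, chromosome 4, 117159639 to 117182639, minus strand) encodes MCAK, a kinesin-13 that removes tubulin from microtubule ends and corrects faulty attachments at centromeres. It had 17.4, 23.8 and 18.4 CPM in CK1i replicates 1 to 3, against 4.61, 11.2 and 10.0 CPM in CTRL replicates 1 to 3. Every CK1i library exceeded every CTRL library, with CTRL replicate 1 far below the rest. The log2 fold change was 1.21 ± 0.30 (SE; edgeR adjusted p = 0.493), which is 2.32-fold.

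Kif18b (ENSMUSG00000051378, chromosome 11, 102905529 to 102925124, minus strand) encodes a kinesin-8 that binds MCAK and controls the length of astral microtubules. It had 32, 44 and 29 counts in CK1i replicates 1 to 3, against 5, 20 and 16 counts in CTRL replicates 1 to 3. In CPM these were 10.5, 14.4 and 11.6 in CK1i, against 1.77, 7.98 and 5.34 in CTRL. The groups were apart, and CTRL replicate 1 rested on only 5 counts. The log2 fold change, 1.29 ± 0.38 (SE, with edgeR adjusted p = 0.822), was the highest of the 9 and was 0.88 without CTRL replicate 1. It was 1.74 without CTRL replicate 2.

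Kif11 and Kif15 both drive the spindle poles apart. Kif11 (ENSMUSG00000012443, chromosome 19, 37376403 to 37421859, plus strand) encodes Eg5, the main motor of bipolar spindle assembly, and was scarcely counted, with 8, 11 and 9 counts in CK1i replicates 1 to 3, against 5, 4 and 10 counts in CTRL replicates 1 to 3. These groups overlapped, and Kif11 did not pass the filter on low counts. Fitted without a filter its log2 fold change was 0.51 ± 0.49 (SE; edgeR adjusted p = 0.825). Kif15, a kinesin-12 that can take over from Eg5 when Eg5 is inhibited, was far more abundant in this 3′ end assay, with 76.0, 119 and 78.2 CPM in CK1i replicates 1 to 3, against 37.6, 78.6 and 61.1 CPM in CTRL replicates 1 to 3. CTRL replicate 2 lay within the CK1i range. The Kif15 log2 fold change was 0.63 ± 0.27 (SE; edgeR adjusted p = 0.9995), and it was 0.38 without CK1i replicate 2 as well as without CTRL replicate 1.

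The chromokinesins Kif22 and Kif4 bind chromosome arms. Kif22 encodes Kid, which pushes arms away from the poles, and it ranged from 39.5 to 66.9 CPM in CK1i, against 21.3 to 39.9 CPM in CTRL. CTRL replicates 2 and 3, at 39.9 and 39.4 CPM, were level with CK1i replicate 1 at 39.5 CPM. Its log2 fold change was 0.57 ± 0.26 (SE; edgeR adjusted p = 0.9995), and leaving out CK1i replicate 2 gave 0.29, while leaving out CTRL replicate 1 gave 0.32. Kif4, which helps to shape chromosomes with condensin and to build the midzone with PRC1, ranged from 15.5 to 24.1 CPM in CK1i, against 5.68 to 15.6 CPM in CTRL. The highest CTRL library and the lowest CK1i library were almost level. The Kif4 log2 fold change, 0.85 ± 0.31 (SE, with edgeR adjusted p = 0.943), was 0.53 without CTRL replicate 1. Kif4 overlaps Pdzd11 on the opposite strand, which had 14.8 to 15.7 CPM in CK1i, against 16.0 to 20.8 CPM in CTRL.

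**Figure D3:**
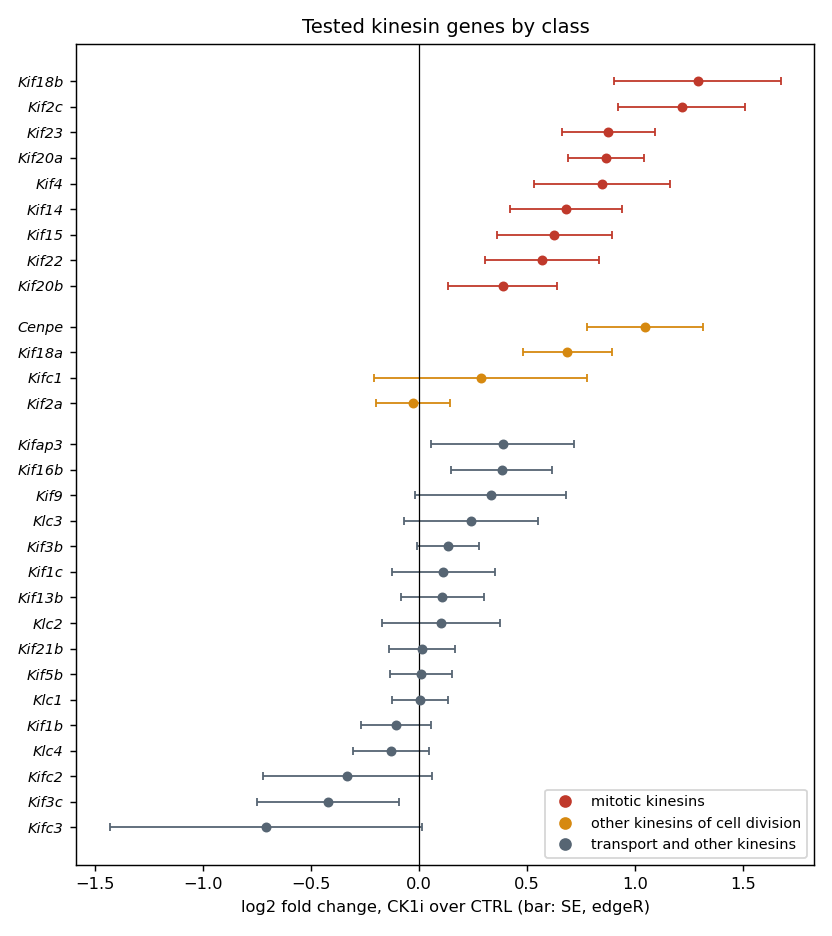
Log2 fold changes, CK1i over CTRL, with SE, of the 29 kinesin and kinesin-associated genes tested, ordered within 3 classes. The mitotic kinesins lie between 0.39 and 1.29, and the transport and other kinesins lie between -0.71 and 0.39.

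The 9 tested kinesins followed one pattern over the libraries. Each of the 9 was highest in CK1i replicate 2 and lowest in CTRL replicate 1. Their mean log2 CPM was 5.05, 5.62 and 5.15 in CK1i replicates 1 to 3, against 3.87, 4.84 and 4.65 in CTRL replicates 1 to 3. The groups differed by 0.82 (5.27 ± 0.31 in CK1i and 4.45 ± 0.51 in CTRL, SD, n = 3). Within CTRL, replicate 2 exceeded replicate 1 by 0.97, which is more than the difference between the groups. Pearson correlations of log2 CPM between the genes ran from 0.74 to 0.99 over the 36 pairs, with a median of 0.94. They rest on 6 libraries that the genes share, and are given as a description.

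**Figure D4:**
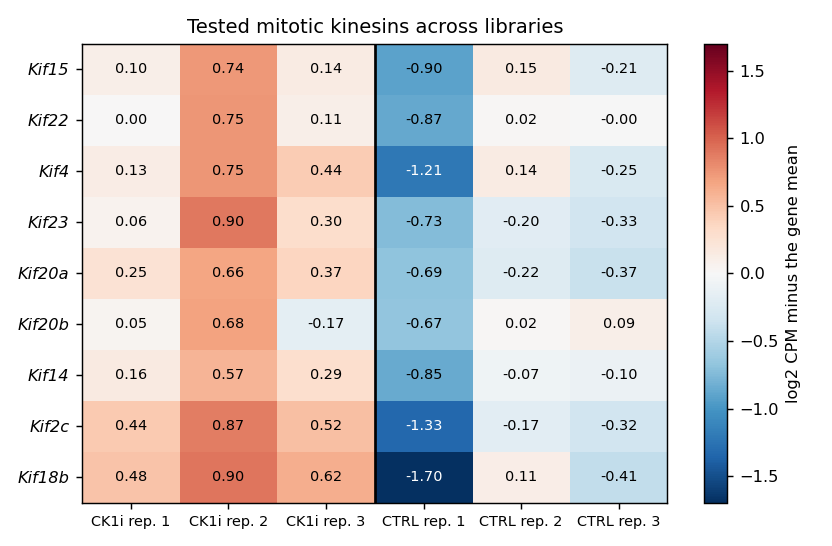
Log2 CPM of the 9 tested mitotic kinesins minus each gene's mean over the 6 libraries, in CK1i (left of the line) and CTRL. CTRL replicate 1 is the lowest column and CK1i replicate 2 the highest in all 9 rows.

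The difference was smaller without either of these libraries. This had to follow, since they held the lowest CTRL and the highest CK1i value of each gene. Without CTRL replicate 1 the median log2 fold change of the same 9 kinesins was 0.53. Kif11 then passed the filter too, and 4 of 10 tested had an unadjusted p under 0.05, against 3.07% of all genes then higher at that level. Without CK1i replicate 2 the median was 0.59 with 4 of 9, against 1.73%. The 4 were Kif20a, Kif2c, Kif23 and Kif18b in both cases. In both, all log2 fold changes of the kinesins tested stayed above 0. CTRL replicate 1 had 2859649 counts in all, within the range of 2472064 to 3105137 over the 6 libraries. Over genes with enough counts, it differed from CTRL replicates 2 and 3 by a chi-square of 10.5 and 10.6 per degree of freedom. Those replicates differed from each other by 6.93, and pairs of CK1i libraries by 6.64 to 11.2. Why CTRL replicate 1 had the lowest kinesin values was not tested.

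**Figure D5:**
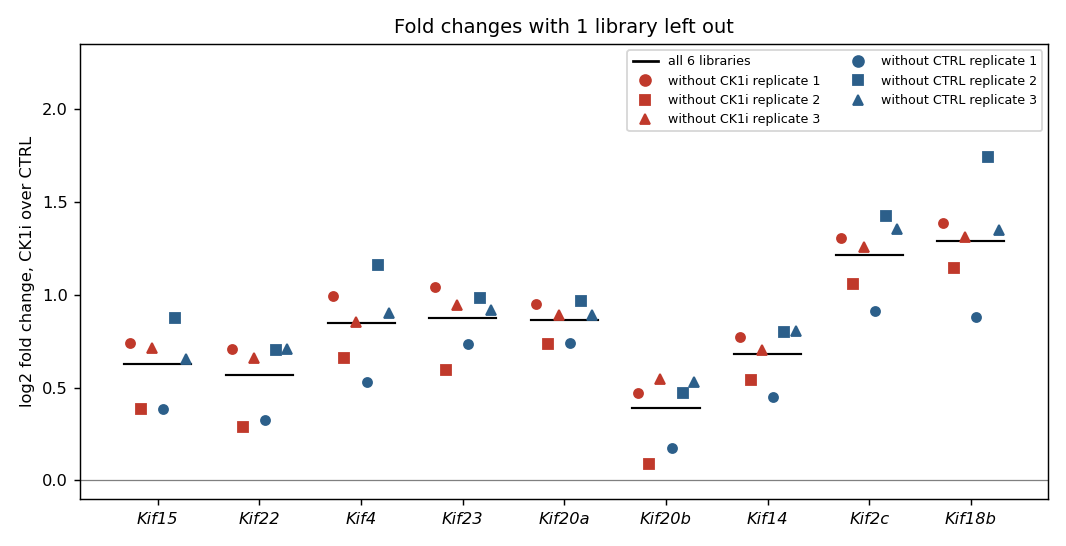
Log2 fold changes, CK1i over CTRL, of the 9 kinesins with all 6 libraries (black line) and with each library left out (symbols). Leaving out CTRL replicate 1 (blue circle) or CK1i replicate 2 (red square) gives the lowest value for each gene, and all values lie above 0. These libraries held the lowest CTRL and the highest CK1i values, so lower fold changes had to follow.

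The kinesins were also set against one another. Measured as log2 CPM minus the mean of the other 8, Kif18b stood at -1.80 in CK1i and -2.37 in CTRL, and Kif2c at -1.03 in CK1i and -1.48 in CTRL. For Kif18b, CK1i replicate 2 and CTRL replicate 2 were almost level, at -1.92 and -1.93, and CTRL replicate 1, with 5 counts, stood at -2.87. Kif20b was lower in CK1i on this scale, at 0.60 in CK1i and 1.10 in CTRL. Also lower were Kif22 (0.38 in CK1i and 0.67 in CTRL), Kif15 (1.37 and 1.56) and Kif14 (-1.11 and -0.95). Some genes had to be lower where others were higher, since each was set against the rest. Kif23 stood at 1.72 in CK1i and 1.70 in CTRL, and Kif20a at 0.95 in CK1i and 0.91 in CTRL. These differences between genes were not tested.

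Among other kinesins of cell division, 3 of the 4 tested had higher values in CK1i, as did 48.8% of all tested genes, and Kif2a was nearly level. Of 7 listed genes 4 were tested, with 2 higher and 0 lower at an unadjusted p under 0.05. At that level 2.70% of all tested genes were higher and 2.00% lower. Cenpe, the kinetochore motor CENP-E, had 64.0 ± 23.5 CPM in CK1i against 31.1 ± 7.84 CPM in CTRL (n = 3 each, SD), a log2 fold change of 1.05 ± 0.27 (SE). Kif18a, a kinesin-8 that damps chromosome movement, had 22.8 ± 1.88 CPM in CK1i against 14.2 ± 1.25 CPM in CTRL (n = 3 each, SD). Its correlation with the mean of the 9 kinesins was 0.59, against 0.95 for Cenpe. Kif2a, a kinesin-13 that also acts outside mitosis, had 37.8 ± 5.28 CPM in CK1i against 38.6 ± 3.29 CPM in CTRL (n = 3 each, SD), a log2 fold change of -0.028 ± 0.17 (SE). Kifc1, a minus-end motor, had 0.29 ± 0.49 (SE), and its reads may be shared with the near-identical Kifc5b. Kifc5b and Kif24 had 36 and 14 counts in all and were not tested. Kif2b had 0 counts in the 6 libraries, which allows up to 0.176 CPM.

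Kinesins and light chains of intracellular transport gave a background from the same protein family. Of 32 listed, 16 were tested, 11 with higher and 5 with lower values in CK1i, a median log2 fold change of 0.058, and 0 at an unadjusted p under 0.05. Among all tested genes 48.8% had higher values in CK1i, and at that level 2.70% were higher and 2.00% lower. With so few genes, 0 at that level does not set this list apart from all tested genes. The transport genes with the smallest p were Kif16b, an endosome motor (0.38 ± 0.23, SE), Kif3c, a heterotrimeric kinesin-2 subunit (-0.42 ± 0.33), and Kifap3, the adaptor of kinesin-2 (0.39 ± 0.33). Another 8 of the 32 had 0 counts.

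Binding partners of the mitotic kinesins mostly shared their direction. Of 12 midzone and cytokinesis partners, all tested, 11 had higher values in CK1i, 10 of them at an unadjusted p under 0.05. Their median log2 fold change was 0.74. Among all tested genes 48.8% had higher values in CK1i, and 2.70% were higher at that level. Cep55, which organises abscission, had 13.5 ± 2.60 CPM in CK1i against 5.84 ± 1.18 CPM in CTRL (n = 3 each, SD). Prc1, the microtubule bundler that recruits Kif4 and Kif14, had 116 ± 31.6 CPM in CK1i against 68.8 ± 11.6 CPM in CTRL (n = 3 each, SD). Cdca8, which encodes Borealin of the chromosomal passenger complex, had a log2 fold change of 0.79 ± 0.20 (SE). Of 16 spindle pole and motor-regulating partners, 14 had higher values and 7 of these an unadjusted p under 0.05. The smallest p values were those of Hmmr (1.04 ± 0.24), Bub1 (0.96 ± 0.27) and Ccnb1 (0.90 ± 0.27). The Ccnb1 groups overlapped, at 16.5 to 32.6 CPM in CK1i against 11.4 to 16.8 CPM in CTRL. Like the kinesins, Prc1, Cdca8, Hmmr, Bub1 and Ccnb1 were highest in CK1i replicate 2 and lowest in CTRL replicate 1, while Cep55 was not. These named partners thus share the dependence of the kinesins on these libraries. In both partner lists 0 genes passed an adjusted p of 0.05 in edgeR.

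Among 25 listed regulators of G2/M transcription, 24 were tested. Higher values in CK1i were found in 19 and lower values in 5, where 48.8% of all tested genes had higher values. The median log2 fold change of the 24 regulators was 0.14. Of the 19 with higher values 4 had an unadjusted p under 0.05, where 2.70% of all tested genes were higher at that level. Foxm1, an activator of these promoters, had 42.1 ± 3.46 CPM in CK1i against 27.5 ± 8.75 CPM in CTRL (n = 3 each, SD), and Rbl1, which encodes the DREAM pocket protein p107, 45.6 ± 6.70 CPM in CK1i against 30.3 ± 2.49 CPM in CTRL. The CTRL values of Foxm1 ran from 18.1 CPM in replicate 1 to 35.4 CPM, and its lowest CK1i library had 39.3 CPM. E2f3 had a log2 fold change of 0.44 ± 0.20 (SE). None passed the adjusted threshold.

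Outside these lists, the genes whose log2 CPM followed the mean of the 9 kinesins most closely included Tmpo, Espl1, Mki67, Lrrc14, Ndufa10, Bub1b and Marchf1, with Pearson correlations from 0.992 to 0.997 over the 6 libraries. Among them are Espl1, the separase that opens cohesin at anaphase, Bub1b, a spindle checkpoint kinase, and Mki67, the Ki-67 marker of dividing cells. Mki67 had 223 ± 72.0 CPM in CK1i against 115 ± 40.1 CPM in CTRL (n = 3 each, SD). Likeness over 6 libraries says nothing about size, since Lrrc14 had a log2 fold change of 0.16 ± 0.15 (SE).

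The labelled cell type was checked against its markers, and all 10 CLL and B-cell markers were counted at a sum of 17239 to 21916 CPM in CK1i, against 20155 to 22949 CPM in CTRL. Erythroid precursors, which divide in the spleen, left few counts. Of 12 erythroid markers 10 were counted, at 81.2 to 99.1 CPM in CK1i, against 103 to 130 CPM in CTRL, with Epor among those at 0 and most of the sum from Tfrc, the transferrin receptor. Tfrc is also made by other dividing cells and had 86.7 ± 11.02 CPM in CK1i against 113 ± 12.6 CPM in CTRL (n = 3 each, SD). For Tfrc each CK1i library lay below each CTRL library, the reverse of the kinesin direction and an order seen in 451 of the 10067 tested genes. Hbb-bt, a beta-globin gene and the other erythroid marker tested, had 4.21 ± 1.22 CPM in CK1i against 3.38 ± 0.20 CPM in CTRL (n = 3 each, SD), and its ranges overlapped. T-cell markers, all 11 counted, summed to 119 to 176 CPM in CK1i, against 109 to 132 CPM in CTRL, mostly from Lck, which had 104 to 153 CPM in every library. Trac, the other T-cell marker tested, had only 5.87 ± 3.44 CPM in CK1i against 5.85 ± 3.07 CPM in CTRL (n = 3 each, SD). The sum is therefore mainly a measure of Lck. Monocyte and macrophage markers (11 of 12 counted, Cd14 at 0) reached 47.0 to 66.1 CPM in CK1i, against 40.1 to 54.0 CPM in CTRL, with Cd68 at a log2 fold change of 0.50 ± 0.18 (SE). For Cd68 each CK1i library lay above each CTRL library, as in 5.22% of all tested genes. NK-cell (6 of 8 counted), neutrophil (5 of 10) and megakaryocyte markers (3 of 6) stayed at or under 4.39 CPM in sum. Germinal centre markers (7 of 8 counted, Gcsam at 0) summed to 49.4 to 54.5 CPM in CK1i, against 43.7 to 57.9 CPM in CTRL. Of the 5 tested, 3 had higher and 2 had lower values in CK1i. Bcl6 had 5.65 ± 1.67 CPM in CK1i against 2.32 ± 0.86 CPM in CTRL, and Rgs13 had 2.15 ± 1.56 CPM in CK1i against 4.61 ± 3.19 CPM in CTRL (n = 3 each, SD). Plasma cell markers (7 of 7) summed to 1029 to 2187 CPM in CK1i, against 1720 to 2538 CPM in CTRL. CK1i replicate 2, the library with the highest kinesin values, had the lowest sums of the CLL and plasma cell markers, 17239 and 1029 CPM. The part of these markers in the kinesin difference was not tested.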

How the data were processed

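The authors deposited raw gene-level counts for 6 libraries prepared with a QuantSeq 3′ forward kit and molecular identifiers (UMIs), per the labels' protocols. The submitters' processing notes name UMI-tools 1.1.1, STAR 2.7.3a, featureCounts 1.6.3 and GRCm38.p6, without role. UMI collapsing and strand setting are not stated there, so the floor of 3 counts covers counting error only. Libraries held 2472064 to 3105137 counts. Counts from this kit do not scale with transcript length. All libraries carry 1 batch label, and separate mice are not stated in the labels, so the p-values may reflect technical spread only. The library titles carry distinct numbers of unstated meaning, and replicate numbers were assigned here in the order of those titles. Pairs of libraries in a group differed by a chi-square of 6.64 to 11.2 per degree of freedom, beyond counting error, and pairs across groups by 4.30 to 11.7, which does not tell separate mice from repeat preparations.

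Counts were fitted in R 4.3.3 with edgeR 4.0.16 (filterByExpr with a minimum count of 10 and total of 15, TMM, robust quasi-likelihood F test, two-sided, Benjamini-Hochberg over 10067 genes). SE is the log2 fold change over the root of F, and log2 CPM has a prior count of 2. Alternatives were DESeq2 1.42.0, limma-voom 3.58.1, RLE factors, other filters and leaving out each library. The procedure was tested on simulated data with a fixed spread and genes drawn independently. The kinesins rose and fell together over the libraries, so that test does not speak to them as a set. Members, lists and the naming rule were chosen with earlier results of these data known. The rule took all members, the other kinesins of cell division, up to 3 genes of smallest p per list, and the 8 genes of at least 5 CPM most like the kinesin mean. Overlapping genes were named besides. Some genes that the rule or lists take are not reported here. Symbols are the table's, with 4 list genes matched by GENCODE M21, which also gave coordinates.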

Additional observations from a re-analysis of the deposited data

How the results depend on the processing

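No kinesin passed an adjusted p of 0.05 under any of the 11 alternatives. The closest were Kif20a and Kif2c with no filter on low counts, at adjusted p of 0.0538 and 0.0734 in edgeR; over its alternatives Kif20a ran from 0.0538 to 0.9997 and Kif2c from 0.0734 to 0.9997. Over all genes, 0 were called with all libraries, 3 with no filter and 8 with DESeq2, and 0 to 1 with a library left out. The number of kinesins at an unadjusted p under 0.05 was 7 to 8 with another filter, scaling or tool, where 1.88% to 2.89% of all tested genes were higher at that level, and 4 to 8 with a library left out, where 1.73% to 3.61% were. The number with groups apart was 5 to 8 with a library left out, where fewer libraries have to be apart and 9.13% to 11.6% of all tested genes were. It was 8 without CK1i replicate 1 (10.2% of all) and without CTRL replicate 2 (11.6%). The median log2 fold change was 0.76 with no filter, which adds Kif11, and 0.49 to 0.92 with a library left out, where 4 of the 6 cases add Kif11; over the same 9 genes it was 0.53 to 0.97. All log2 fold changes of single kinesins kept their direction in these alternatives. The cause of the shifts was not tested, beyond the lower number of libraries and the other set of genes tested. Leaving out CTRL replicate 1 or CK1i replicate 2 had to lower the fold changes, by their place in the groups. No paired analysis was possible because the labels give the groups no shared replicate numbers. Low counts limit Kif11, with 47 in all, and Kif18b, with 146.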

Other observations

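Cytoplasmic dynein and its activator dynactin, the motor that pulls against several mitotic kinesins, gave no common direction. Of 26 listed genes 20 were tested. Higher values in CK1i were found in 12 and lower values in 8, where 48.8% of all tested genes had higher values. The median log2 fold change of the 20 was 0.029. Dctn1, the large dynactin subunit, had 0.87 ± 0.40 (SE) and was the 1 gene with an unadjusted edgeR p under 0.05. At that level 2.70% of all tested genes were higher and 2.00% lower. Dynll2 had 0.22 ± 0.14 and Actr1b -0.24 ± 0.16 (SE).

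Kifc3, a minus-end kinesin of epithelial junctions named after its values were seen, varied more within the groups than between them. It had 33, 98 and 31 counts in CK1i replicates 1 to 3, against 36, 55 and 167 counts in CTRL replicates 1 to 3.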
